A study of Mus musculus with 703 samples.

Results

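AMP-activated protein kinase (AMPK) and its energy-sensing partners were represented by 10 genes of 19088 in the counts table. They were matched by gene symbol, and comprised the catalytic alpha subunits Prkaa1 and Prkaa2, the scaffolding beta subunits Prkab1 and Prkab2, the nucleotide-binding gamma subunits Prkag1, Prkag2 and Prkag3, the upstream kinase gene Stk11 (LKB1), the transcriptional coactivator gene Ppargc1a and the NAD-dependent deacetylase gene Sirt1. AMPK is a heterotrimer of 1 alpha, 1 beta and 1 gamma subunit that responds to rising AMP and ADP and is switched on when LKB1 phosphorylates its alpha subunit. In skeletal muscle it acts on glucose uptake, fatty acid oxidation and mitochondrial gene programmes, the last partly through PGC-1alpha, the product of Ppargc1a. Metformin, a biguanide used in type 2 diabetes, is known to engage AMPK signalling, which is regulated largely by phosphorylation. The RNA levels reported here do not measure kinase activity.

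RNA was sequenced from the gastrocnemius of mice of 20 Collaborative Cross recombinant inbred intercross (CC-RIX) strains, each the F1 of a pair of Collaborative Cross lines, with 22 to 38 mice per strain and a genotype labelled outbred in every animal. All mice ate a diet with added fiber and either 10% or 44% fat, begun at an age of 6 weeks, and a subset drank water with metformin at 5 mg/mL from 7 months. The untreated group held 236 females and 233 males, 235 of them on 44% fat and the rest on 10% fat, and the metformin-treated group held 57 females and 59 males on 10% fat and 59 of each sex on 44% fat. Tissue was collected at 6 or 12 months, and metformin began at 7 months, so treated mice belonged to the older cohort. No age is given for each library, so the untreated group may hold mice of both cohorts, and metformin and age cannot be told apart in any comparison of treatment below.

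Libraries held 27.4 M to 96.1 M estimated counts, with a median of 47.9 M (M, mega). Sequencing identifiers fell into a lower range of 544 libraries (400 untreated, 144 treated) and an upper range of 159 (69 untreated, 90 treated), which entered every fit as a term. In 15 libraries the Xist level went against the labelled sex, 4 libraries resembled another strain more than their own, and 11 had high hepatocyte markers, which muscle should lack. The 8 genes listed as fast IIb fibre markers were Myh4, Pvalb, Actn3, Mybpc2, Myl1, Tnnt3, Tnni2 and Atp2a1. They summed to a median of 127300 CPM (counts scaled to library size by TMM) in untreated and 129800 CPM in treated libraries. In bulk tissue, fewer cells of a type and less RNA per cell cannot be told apart.

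The upstream sequences of 3 members are shown because these genes carried the main differences below: Ppargc1a was the 1 member whose metformin difference was called as varying between strains, and Prkag3 and Prkab2 had the largest shares of variance with sex. RefSeq promoters of build GRCm38.p6 matched all 10 members, and each line gives the 250 bases before an annotated start, 5′ to 3′ on the gene's strand. Ppargc1a is at chr5:51567726-51567975 (minus strand), Prkag3 at chr1:74748956-74749205 (minus strand) and Prkab2 at chr3:97657962-97658211 (plus strand). Capitals mark every CANNTG (an E-box core) and every GGGCGG (a GC box), searched on both strands, where the E-box core reads the same on either.
Ppargc1a: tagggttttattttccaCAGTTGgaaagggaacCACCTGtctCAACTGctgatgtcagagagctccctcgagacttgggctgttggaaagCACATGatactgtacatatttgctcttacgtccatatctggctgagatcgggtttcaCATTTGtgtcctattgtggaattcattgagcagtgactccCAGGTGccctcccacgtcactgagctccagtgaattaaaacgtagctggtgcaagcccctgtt
Prkag3: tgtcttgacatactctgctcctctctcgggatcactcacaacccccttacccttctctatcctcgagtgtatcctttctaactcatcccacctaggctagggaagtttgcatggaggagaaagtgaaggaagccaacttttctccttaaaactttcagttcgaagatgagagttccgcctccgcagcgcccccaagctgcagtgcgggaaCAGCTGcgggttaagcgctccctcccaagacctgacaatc
Prkab2: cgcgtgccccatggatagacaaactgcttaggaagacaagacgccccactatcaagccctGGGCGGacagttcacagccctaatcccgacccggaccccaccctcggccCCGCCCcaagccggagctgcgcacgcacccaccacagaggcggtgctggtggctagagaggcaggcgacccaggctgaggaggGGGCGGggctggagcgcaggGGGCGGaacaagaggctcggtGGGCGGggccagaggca
Ppargc1a held 6 CANNTG and no GGGCGG, and 0.274% of 32851 promoter windows of this length held at least as many CANNTG. Prkag3 held 1 CANNTG and no GGGCGG, and 66.2% of the windows held at least 1 CANNTG. The sequence TGACG, the core of a cAMP response element, was also searched on both strands and is not capitalised. It stood once in the Ppargc1a stretch, in neither of the other two, and in 17.8% of windows. Prkab2 held no CANNTG and 5 GGGCGG, a number reached in 1.93% of windows, where 32.7% had at least 1. Among the members not shown, Prkaa1 also held 5 GGGCGG and Sirt1 held 6 (reached in 0.886% of windows), so this was not particular to Prkab2. GC made up 48% of the Ppargc1a stretch, 52.4% of that of Prkag3 and 69.2% of that of Prkab2, against a median of 52.4%. These matches describe letters in the sequence and do not show binding.

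Each AMPK subunit class was dominated by 1 isoform gene at the RNA level. On a scale of CPM per kilobase of merged exons, in the untreated mice on 10% fat, the order was Prkab2 (77.9 ± 12.3, SD), Prkaa2 (49.1 ± 4.84), Prkag3 (36.9 ± 11.5), Stk11 (15.3 ± 1.76), Prkag1 (13.04 ± 1.28), Ppargc1a (5.85 ± 3.01), Prkaa1 (3.44 ± 0.471), Prkab1 (2.33 ± 0.355), Sirt1 (1.68 ± 0.216) and Prkag2 (0.970 ± 0.308). Prkaa2, the alpha isoform gene typical of striated muscle, made up 93.4% ± 1.03 of the alpha total per length, and Prkab2 made up 97.03% ± 0.642 of the beta total. Among gamma genes, Prkag3, known for its restriction to glycolytic muscle, made up 70.99% ± 7.48, Prkag1, the widely expressed isoform, 26.98% ± 6.91, and Prkag2, known from cardiac glycogen disease, 2.02% ± 0.920. The gamma shares thus varied far more between libraries than those of the other classes, and Prkag3 ranged from 43.5% to 84.8% of the gamma total.

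**Figure D1:**
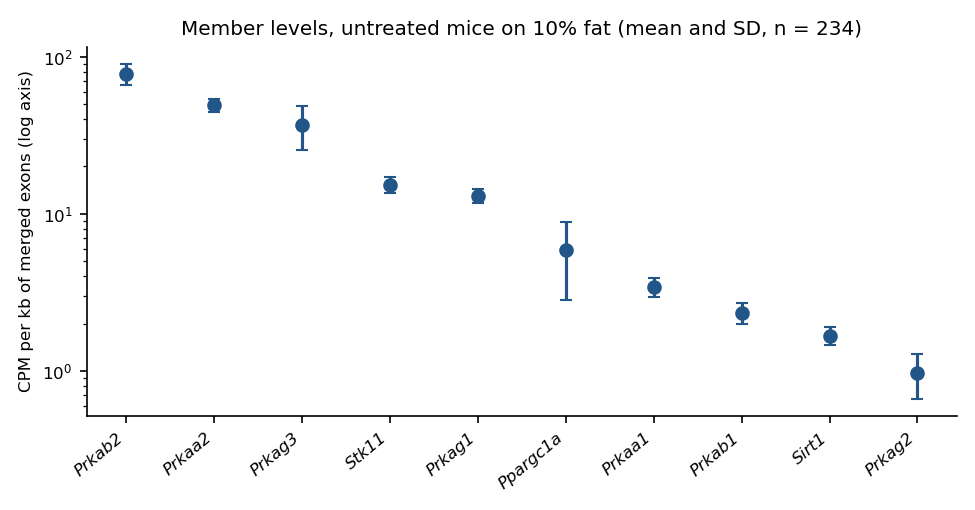
Mean level of each member, in CPM per kilobase of merged exons on a log axis, with the SD as a bar, in untreated mice on 10% fat. Prkab2, Prkaa2 and Prkag3 sit highest at 77.9, 49.1 and 36.9, and Prkag2 lowest at 0.970.

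Neighbours in this order were mostly separated within single libraries. Prkab2 exceeded Prkaa2 per length in 99.6% of these libraries, and Prkag3 exceeded Stk11 in 99.1%. The closest pairs were Prkaa2 over Prkag3 (85% of libraries), Ppargc1a over Prkaa1 (89.7%) and Stk11 over Prkag1 (90.6%), whose spreads overlapped. The mean log2 ratio of Prkaa2 to Prkag3 was 0.48 ± 0.45 (SD) and that of Ppargc1a to Prkaa1 was 0.64 ± 0.63, so neither pair was clearly apart by more than about its own SD. Prkag2 has 10 annotated transcripts from starts far apart, and its counts were taken over the whole gene, at chromosome 5 from 24862744 to 25100642 on the minus strand (GRCm38).

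Over all libraries, Ppargc1a was the most dispersed member and Prkag1 the least. Ppargc1a had a coefficient of variation of 52.8%, with a median of 30.8 CPM, a 95th percentile of 71.4 CPM and a maximum of 163 CPM. Prkag3 and Prkag2 followed with 31.2% and 30.6%. The remaining 7 members lay between 10.1% for Prkag1 and 16.5% for Prkab2. Ppargc1a was thus long-tailed upward, its highest library being 5.29 times the median, whereas no other member exceeded 2.79 times.

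All 10 members differed between the 20 strains in untreated mice, as did 95.4% of the 16384 genes tested, so strain differences were the rule for muscle genes in general. The differences in size were very unequal. Strain took up 40.5% of the variance of Prkag2 on the log2 CPM scale (omega squared), 29.3% of Ppargc1a and 27.2% of Prkab1, above the median of 17.7% over genes averaging 1 CPM or above. Prkab2 (15.7%), Prkaa2 (13.3%), Prkag3 (11.9%), Prkag1 (6.84%), Stk11 (5.22%), Prkaa1 (4.41%) and Sirt1 (2.23%) lay below it. Sirt1 was the weakest of the 10 strain calls (edgeR quasi-likelihood adjusted p = 0.0359), and it was not called without the libraries high in hepatocyte markers. Prkag2 had the smallest value (edgeR adjusted p = 1.46e-52). In the 69 untreated libraries of the upper range alone, 4 of 10 members and 55.1% of all genes were called.

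Strain levels, adjusted for sex, diet and identifier range, placed a single strain apart for each of the most variable members. Prkag2 ranged from 4.15 CPM in (CC009/UncJ x CC013/GeniUncJ)F1 to 10.0 CPM in (CC042/GeniUncJ x CC040/TauUncJ)F1, and the next highest strain had 7.03 CPM. Ppargc1a ranged from 26.1 CPM in (CC001/UncJ x CC042/GeniUncJ)F1 to 67.4 CPM in (CC002/UncJ x CC043/GeniUncJ)F1, and the next highest, (CC012/GeniUncJ x CC002/UncJ)F1, had 45.6 CPM. Both highest strains stood well above the rest, which for Prkag2 spanned 4.15 to 7.03 CPM. Prkab1 ranged from 5.86 to 8.57 CPM and Prkag3 ranged 1.56-fold up to 159 CPM, with the highest value of both in (CC075/UncJ x CC042/GeniUncJ)F1. Prkab2 ranged 1.33-fold, Prkaa2 1.18-fold, Sirt1 1.15-fold, Prkaa1 1.13-fold, Stk11 1.13-fold and Prkag1 1.10-fold between the extreme strains.

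No parental line separated its strains wholly from the rest for any member, a strict mark whose frequency over all genes was not computed. The 6 strains with a CC042/GeniUncJ parent had Ppargc1a at 26.1 to 30.7 CPM, at the low end, while the other 14 strains ranged from 27.02 to 67.4 CPM. The 5 strains with a CC002/UncJ parent ranged from 33.4 to 67.4 CPM, and the other 15 from 26.1 to 42.98 CPM. The levels with and without each line overlapped for all 10 members and all 7 lines that had at least 3 strains. Mean log2 levels with and without a line differed by -0.405 (Ppargc1a, CC042/GeniUncJ) to 0.428 (Ppargc1a, CC002/UncJ), and these differences were not tested.

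**Figure D2:**
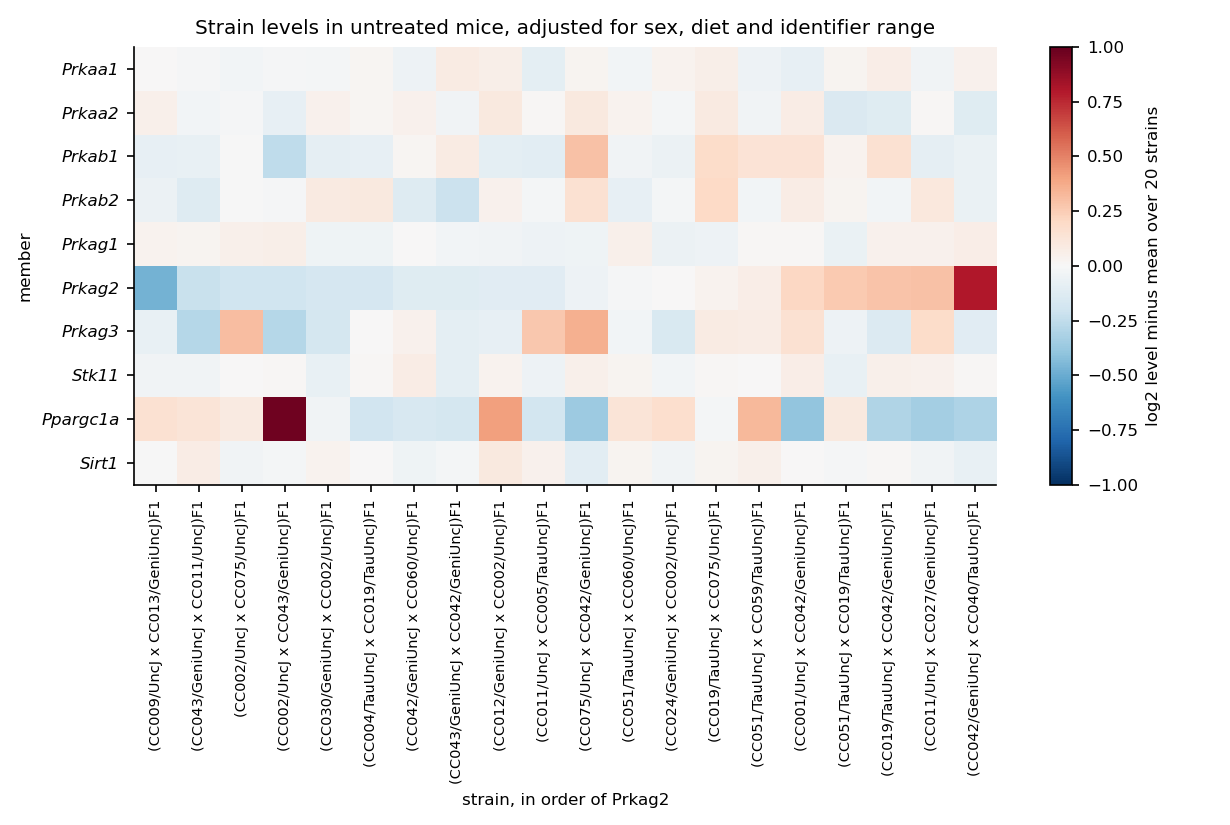
Colour gives the log2 level of each member in each of the 20 strains minus its mean over strains, in untreated mice, adjusted for sex, diet and identifier range, with strains in order of Prkag2. The Prkag2 and Ppargc1a rows span the widest range, each with 1 strain darkest red, and the Sirt1, Stk11, Prkag1 and Prkaa1 rows are near white.

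The named genes whose strain levels ran most like each member are given as a description over 20 strain means, which share depth and composition. The search left out genes averaging under 5 CPM. These genes were picked for having the highest r of many over only 20 values. How high r would reach by such picking alone was not computed. For Ppargc1a they were Slc38a2 (r = 0.891), Kansl3 (0.842) and Pdxk (0.841), and for Prkag3 they were Ankrd23 (0.844), Atp6v0a1 (0.836) and Fis1 (0.813). For the alpha genes the closest were Rhobtb3 with Prkaa1 (0.777) and Clasp2 with Prkaa2 (0.793), and for the beta genes Rnf7 with Prkab1 (0.797) and Dym with Prkab2 (0.764). The closest to Prkag1 was Nr2f6 (0.785), to Prkag2 Lrrc59 (0.790), to Stk11 Mob2 (0.750) and to Sirt1 Ybx1 (0.792). No member was among the 3 closest genes of another member, which says little, since these were picked from all genes searched. Between members, r over the strain means ran from -0.511 (Prkab1 with Ppargc1a) to 0.476 (Prkab1 with Prkag3).

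Sex took up 35.2% of the variance of Prkag3 and 23.8% of that of Prkab2 in untreated mice, the largest shares among the members, where the median over genes was 2.02%. In untreated mice, 5 of 10 members were higher in males and 2 were lower, and the test called 67.1% of all genes, so the number called was near that background. Prkag3 measured 42.1, 101.7 and 196 CPM (lowest, median and highest) in 236 females and 70.2, 153 and 259 CPM in 233 males. The female and male ranges overlapped, with the male median well above the female one. Ranges and strain values by sex, here and below, follow the labels, and libraries whose Xist level went against the label were kept. The fitted male-to-female difference of Prkag3 was 0.55 ± 0.03 on the log2 scale (fold 1.47, edgeR adjusted p = 9.45e-52), and males had the higher mean in 20 of 20 strains. The ratio of strain means ran from 1.11 in (CC011/UncJ x CC005/TauUncJ)F1 to its highest value in (CC042/GeniUncJ x CC040/TauUncJ)F1 (83.4 CPM in females and 163.6 CPM in males), and in 2 strains no female reached the lowest male, which were (CC042/GeniUncJ x CC040/TauUncJ)F1 and (CC042/GeniUncJ x CC060/UncJ)F1.

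Prkab2, the muscle beta isoform gene, was also higher in males. It measured 209, 363 and 478 CPM in females and 233.6, 422 and 577 CPM in males, a difference of 0.23 ± 0.02 on the log2 scale (edgeR adjusted p = 7.83e-37). Males exceeded females in mean log2 CPM in 17 of 20 strains. The widest ratio of strain means, 1.58, stood in (CC019/TauUncJ x CC042/GeniUncJ)F1, with 305 ± 51.1 CPM in females and 481 ± 67.4 CPM in males (SD, n = 12 each). The 3 strains that went the other way all had a CC002/UncJ parent, and their ratios were 0.954, 0.955 and 0.993, which lay within the spread between mice.

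Ppargc1a differed by about as much as Prkab2, with a wider error. It had medians of 28.1 CPM in females and 33.7 CPM in males (log2 difference 0.24 ± 0.04, edgeR adjusted p = 7.05e-07), with males higher in 19 of 20 strains. Strain counts in this paragraph compare mean log2 CPM. In mean CPM, males were lower in (CC002/UncJ x CC043/GeniUncJ)F1 (ratio 0.786), (CC043/GeniUncJ x CC042/GeniUncJ)F1 (0.859), (CC043/GeniUncJ x CC011/UncJ)F1 (0.992) and (CC012/GeniUncJ x CC002/UncJ)F1 (0.996). Stk11 had medians of 66.98 and 71.4 CPM (0.11 ± 0.01, edgeR adjusted p = 4.69e-15), again with males higher in 19 of 20 strains. Prkag2 was higher by 0.07 ± 0.03 (edgeR adjusted p = 0.0257) in 14 of 20 strains, and its direction turned to -0.17 in the upper identifier range and to -0.0028 without normalization factors, where it was not called. Prkaa1 and Prkag1 went the opposite way. Prkaa1 was lower in males by 0.10 ± 0.02 (medians of 16.04 CPM in females and 15.2 CPM in males, edgeR adjusted p = 5.38e-10) in 18 of 20 strains. Prkag1 fell from a median of 28.7 CPM in females to 27.4 CPM in males, by 0.06 ± 0.01 on the log2 scale (edgeR adjusted p = 1.79e-06), in 19 of 20 strains. Prkaa2 (0.02 ± 0.01), Prkab1 (-0.02 ± 0.02) and Sirt1 (-0.02 ± 0.02) did not pass the test. Without normalization factors these 3 were called lower in males, Prkaa2 at -0.04.

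**Figure D3:**
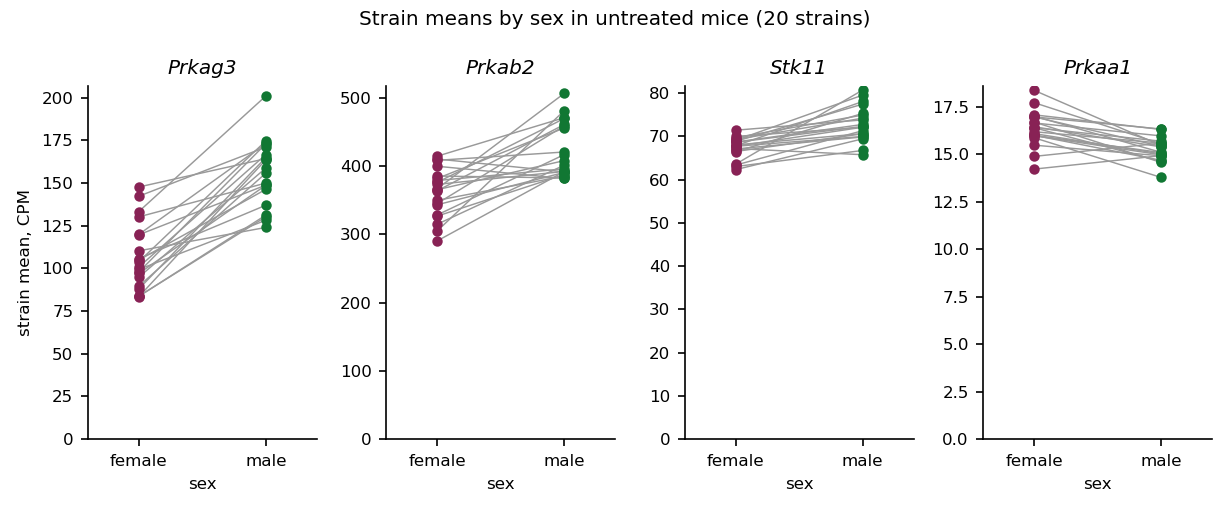
Each point is the mean CPM of a strain in untreated females or males, and a line joins the sexes of each of the 20 strains, for Prkag3, Prkab2, Stk11 and Prkaa1. Prkag3 lines rise from female to male in 20 of 20 strains, and Prkaa1 lines mostly fall.

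The same 7-of-10 count held in the treated mice, where 53.2% of genes were called between the sexes. Prkag3 was higher in males by 0.60 ± 0.05, Prkab2 by 0.24 ± 0.03, Ppargc1a by 0.22 ± 0.06 and Stk11 by 0.10 ± 0.02, and Prkaa2 now passed the test at 0.06 ± 0.02 (edgeR adjusted p = 0.00354). Prkaa1 was lower by 0.13 ± 0.02 and Prkag1 by 0.11 ± 0.02, and Prkag2 was not called (0.04 ± 0.04). Fibre markers differed between the sexes in parallel. All 8 slow fibre markers were lower in untreated males with a median log2 difference of -0.628, and 6 of 8 fast IIb markers were higher and 2 lower, with a median of 0.146, against -0.018 over all genes. The 2 markers of IIa and IIx fibres, Myh2 and Myh1, were both lower, with a median of -0.209. The slow markers summed to 967 to 4295 CPM in all females and 499 to 2559 CPM in all males, and the part of fibre type in the differences of Prkag3 and Prkab2 was not tested. Of the 8 adipocyte markers, 7 were lower and 1 higher in untreated males.

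The surrounding pathway also split by sex, with 31 of 76 listed genes higher in males and 27 lower (76.3% called, beside 67.1% of all genes). The lists were chosen with earlier results of these data known, so the 2 shares describe the lists and do not test them. Of 7 genes of the LKB1 complex and other AMPK kinases, 4 were higher in males and 2 lower, with Cab39, the MO25 scaffold of LKB1, highest in fold (183 ± 20.7 CPM in males and 160 ± 18.9 CPM in females, log2 difference 0.19 ± 0.01, edgeR adjusted p = 4.8e-34). Of 16 AMPK phosphorylation targets, 5 were higher and 6 lower. The furthest from zero was Tbc1d1, a Rab GTPase-activating protein of glucose uptake, at 59 ± 20.8 CPM in males (fold 0.544, -0.88 ± 0.04, edgeR adjusted p = 4.7e-77). Acaca, the acetyl-CoA carboxylase gene of fatty acid synthesis, measured 40.7 ± 32.3 and 74.6 ± 54 CPM (-0.80 ± 0.06, edgeR adjusted p = 2.7e-33). Ulk1, an autophagy kinase gene, went the other way by 0.22 ± 0.02. All 12 genes of adenylate and phosphocreatine handling were called, 7 higher and 5 lower, led by Ak4, a mitochondrial adenylate kinase gene, at 6.5 ± 3.15 CPM in males and 17.7 ± 7.59 CPM in females (fold 0.369, edgeR adjusted p = 2e-157). Among 14 sirtuin and NAD genes 6 were higher and 3 lower, and Nmrk2, a muscle nicotinamide riboside kinase gene, was 3.52-fold higher in males (65.6 ± 51.9 against 17.4 ± 9.15 CPM). The 15 PGC-1 coactivators and partners split into 6 higher and 7 lower, and the 12 AMPK-related kinases into 3 higher and 4 lower.

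Diet was tied to lower levels of 2 gamma subunit genes. In untreated mice, 2 of 10 members were called between 44% and 10% fat, against 20.3% of all genes, so the number called was near that background. Prkag2 measured 3.18, 5.79 and 15.4 CPM (lowest, median and highest) in mice on 10% fat and 3.33, 5.31 and 12.5 CPM in 235 mice on 44% fat. Its difference was -0.12 ± 0.03 (fold 0.921, edgeR adjusted p = 0.000221), with 44% fat lower in 16 of 20 strains. Prkag3 measured 42.1, 135 and 259 CPM on 10% fat and 43.7, 124 and 232 CPM on 44% fat. Its difference was -0.11 ± 0.03 (fold 0.930, edgeR adjusted p = 0.00686), lower in 15 of 20 strains. The ranges overlapped almost wholly for both genes, and diet took up 2.05% of the variance of Prkag2 and 1.22% of that of Prkag3, where the median over genes was 0.124%.

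The remaining 8 members were not called for diet. Their differences ran from -0.07 ± 0.04 for Ppargc1a to 0.01 ± 0.02 for Sirt1, and the median over the 10 members was -0.029, where that of all genes was -0.003. Prkaa1 (-0.03 ± 0.02, p = 0.0428) and Prkab2 (-0.03 ± 0.02, p = 0.0354) had unadjusted values under 0.05 in edgeR's test that adjustment over all genes removed. No member was called for a diet difference that varied with sex, in an interaction test that called 0.568% of genes. In the 69 untreated libraries of the upper range alone, 2.2% of all genes and none of the 10 members passed the diet test, and the differences of Prkag2 and Prkag3 were -0.22 and -0.164. Without (CC043/GeniUncJ x CC042/GeniUncJ)F1, Ppargc1a passed in limma on log2 CPM (-0.116, limma adjusted p = 0.0414).

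The 2 diet differences recurred in the treated mice, which are other animals. There 2 of 10 members and 12.1% of genes were called. Prkag2 was lower on 44% fat by 0.17 ± 0.04 (fold 0.887, edgeR adjusted p = 0.000182) in 17 of 20 strains, and Prkag3 by 0.18 ± 0.05 (fold 0.880, edgeR adjusted p = 0.0015) in 16 of 20. Among the 8 others, Ppargc1a had 0.06 ± 0.06 and Sirt1 0.01 ± 0.02, and none was called. With 144 treated libraries of the lower range alone, neither Prkag2 (-0.15) nor Prkag3 (-0.149) passed the test, and 3.78% of genes did. Fibre markers moved with diet as well. In untreated mice 4 of 8 slow fibre markers were higher on 44% fat and none lower, and 3 of 8 fast IIb markers were lower and none higher. Of the 2 IIa and IIx markers, 1 was higher and none lower. Other markers moved too, and the slow fibre median was only 0.0685. Of 8 adipocyte markers, 5 were higher and 2 lower (median 0.236). Of 5 fibroblast markers, 3 were lower and none higher (median -0.164), and of 5 endothelium markers, 3 were higher and none lower (median 0.0644). The part of these markers in the lower Prkag3 was not tested.

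Of 76 genes in the pathway lists, 35 (46.1%) were called for diet in untreated mice, 27 higher and 8 lower on 44% fat, beside 20.3% of all genes. Because the lists were chosen with earlier results of these data known, the gap between these shares is not evidence of a pathway response to diet. Among the 16 AMPK targets, 5 were higher and 2 lower. Acaca measured 42.2 ± 27.3 CPM on 44% fat and 73.4 ± 57.6 CPM on 10% fat (-0.72 ± 0.06, edgeR adjusted p = 8.6e-27), and Tbc1d1 went up by 0.22 ± 0.04 (edgeR adjusted p = 6.9e-07). Of 15 PGC-1 coactivators and partners, 8 were higher and none lower, among them Esrrb, an orphan nuclear receptor gene (7.29 ± 1.72 against 6.34 ± 1.58 CPM), and Ppargc1b, the paralogue of Ppargc1a (9.56 ± 2.61 against 8.80 ± 2.30 CPM). Camkk2, an alternative upstream kinase gene of AMPK, was lower (3.66 ± 0.936 against 4.13 ± 1.10 CPM, edgeR adjusted p = 1.2e-06), one of 2 lower and 3 higher in a list of 7. The AMPK-related kinases had 4 higher and none lower of 12, the sirtuin and NAD genes 4 higher and 1 lower of 14, and the adenylate genes 3 higher and 3 lower of 12.

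Metformin treatment went with small decreases of 3 members and the catalytic and beta subunit genes were not called in the fit of all mice. In all mice, 3 of 10 members were called, all lower, against 19.4% of the 17740 genes tested. Prkag1 measured 21.9, 28.01 and 41.03 CPM (lowest, median and highest) in untreated mice and 20.5, 27.2 and 37.4 CPM in treated mice. Its log2 difference was -0.04 ± 0.01 (fold 0.969, edgeR adjusted p = 0.00131), with treated mice lower in mean log2 CPM in 16 of 20 strains. Prkag2 measured 3.18, 5.58 and 15.4 CPM in untreated and 2.90, 5.39 and 14.3 CPM in treated mice. Its difference was -0.08 ± 0.02 (fold 0.947, edgeR adjusted p = 0.0137), lower in 14 of 20 strains. Ppargc1a measured 16.9, 31.2 and 163 CPM in untreated and 14.8, 29.9 and 130 CPM in treated mice. Its difference was -0.14 ± 0.04 (fold 0.907, edgeR adjusted p = 0.0113), lower in 13 of 20 strains. The groups overlapped almost entirely for all 3 genes, and the medians of Ppargc1a differed far less than its upper tails.

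The other members differed little. Prkaa1 (0.00 ± 0.01), Sirt1 (0.00 ± 0.02), Stk11 (-0.01 ± 0.01) and Prkag3 (-0.02 ± 0.03) had 95% intervals of fold that ran from 0.981 to 1.02 for Prkaa1, 0.977 to 1.02 for Sirt1, 0.978 to 1.01 for Stk11 and 0.950 to 1.03 for Prkag3. Prkab1 (0.04 ± 0.02, edgeR adjusted p = 0.077; 0.038 without the libraries whose Xist level mismatched and 0.045 without those nearer another strain), Prkab2 (0.03 ± 0.02, edgeR adjusted p = 0.172) and Prkaa2 (0.02 ± 0.01, edgeR adjusted p = 0.222) had positive values that did not pass. In limma on log2 CPM, Prkab1 passed in 5 of 20 fits that each left out 1 strain, which were (CC002/UncJ x CC075/UncJ)F1 (0.047, limma adjusted p = 0.0296), (CC051/TauUncJ x CC060/UncJ)F1, (CC043/GeniUncJ x CC042/GeniUncJ)F1, (CC004/TauUncJ x CC019/TauUncJ)F1 and (CC019/TauUncJ x CC075/UncJ)F1. The median over the 10 members was -0.0048, and that of all genes was -0.0022.

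**Figure D4:**
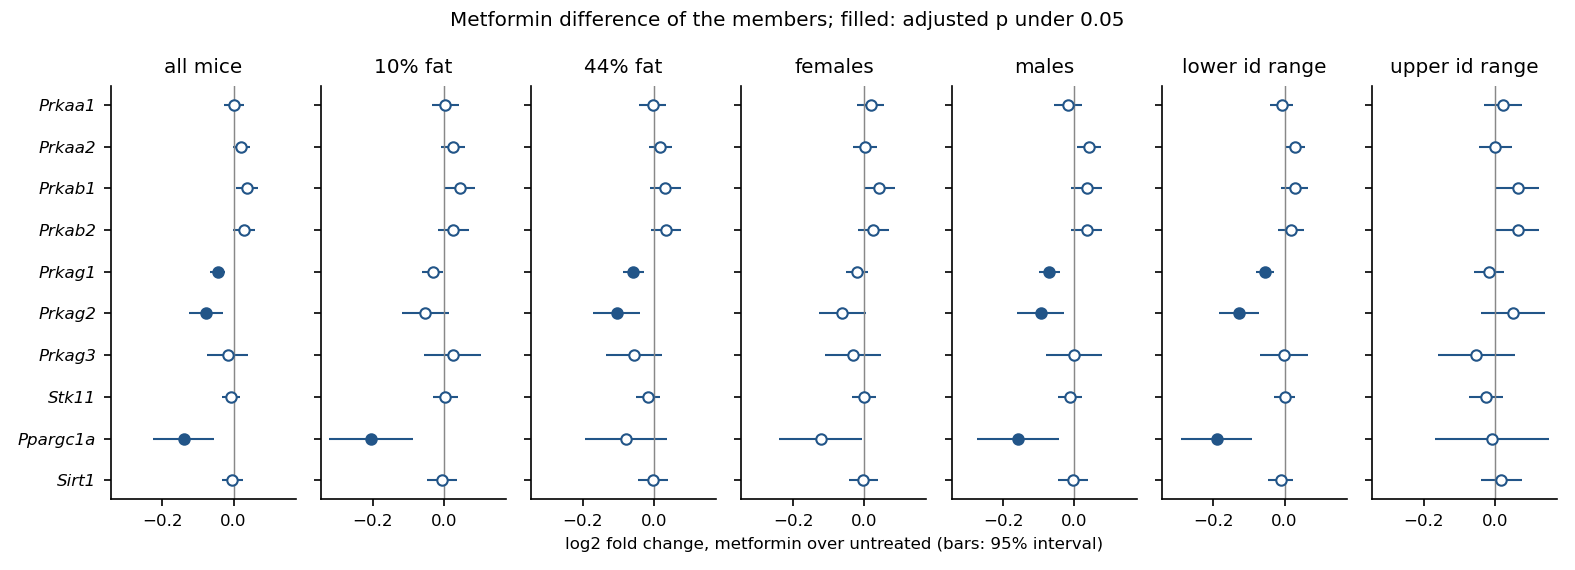
Points give the log2 fold change of metformin over untreated for each member, bars its 95% interval, in all mice, by diet, by sex and by identifier range, and filled points have an adjusted p under 0.05. Ppargc1a, Prkag2 and Prkag1 lie left of 0 with filled points in all mice and in the lower range, and no point is filled in the upper range.

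The metformin differences were unevenly placed across diets, sexes and identifier ranges, but the test of the difference itself called none of the 10 members in any of these. On 10% fat, where 8.96% of genes were called, Ppargc1a alone passed (-0.20 ± 0.06, edgeR adjusted p = 0.0144), with medians of 31.7 CPM in untreated and 29.6 CPM in treated mice. On 44% fat, where 9.09% of genes were called, Prkag1 (-0.06 ± 0.02, edgeR adjusted p = 0.00647) and Prkag2 (-0.10 ± 0.03, edgeR adjusted p = 0.0318) passed. The interaction of metformin and diet called 0.0902% of genes and no member, with 0.12 ± 0.08 for Ppargc1a (edgeR adjusted p = 0.667) and -0.05 ± 0.05 for Prkag2 (edgeR adjusted p = 0.775). Females, with 10.1% of genes called, had no member called, and males, with 16.7%, had the same 3 as all mice. The interaction of metformin and sex called 3.12% of genes and no member, the lowest value being that of Prkag1 (-0.05 ± 0.02, edgeR adjusted p = 0.156).

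The share of genes called for metformin differed more between the identifier ranges than between diets or sexes, but the upper range held fewer libraries. In the lower range, 21.9% of genes were called for metformin, and Ppargc1a (-0.19 ± 0.05, edgeR adjusted p = 0.00213), Prkag2 (-0.13 ± 0.03, edgeR adjusted p = 0.000203) and Prkag1 (-0.06 ± 0.01, edgeR adjusted p = 0.000514) were lower in treated mice. In the upper range, 0.0169% of genes were called, and the same 3 members had -0.01 ± 0.08, 0.05 ± 0.05 and -0.02 ± 0.02. Median levels of Prkag2 were 5.60 CPM in 400 untreated and 5.07 CPM in 144 treated libraries of the lower range, and 5.31 CPM in 69 untreated and 5.76 CPM in 90 treated libraries of the upper range. The interaction of metformin and range called 1.71% of genes, beside 3.12% for metformin and sex. It called no member, and Prkag2 came closest (0.18 ± 0.05, edgeR adjusted p = 0.0552). What the range stands for is not given beyond the identifier, the ranges hold partly different strains, and age, strain and range cannot be told apart in this contrast. Fibroblast markers moved with it: their sum had a median of 707 CPM in untreated and 578 CPM in treated libraries of the lower range, and of 612 and 611 CPM in the upper range. Over all mice 3 of 5 fibroblast markers were lower with metformin (median -0.270) and none higher, and 3 of 8 adipocyte markers were lower. None of 8 slow fibre markers was called, 2 of 8 fast IIb markers were higher and 1 of 2 IIa and IIx markers was lower. The part of these markers in the differences of the members was not tested.

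Of the 10 members, Ppargc1a was the only one whose metformin difference was called as varying between strains. The interaction over 20 strains gave an edgeR adjusted p of 1.27e-11 for Ppargc1a, called 11.6% of genes, and gave adjusted values of 0.226 (Prkag3) to 0.904 (Prkab2) for the 9 other members. In (CC002/UncJ x CC043/GeniUncJ)F1, Ppargc1a measured 29.1, 64.9 and 156 CPM (lowest, median and highest) in 24 untreated mice and 25.3, 29.9 and 63.2 CPM in 12 treated mice. The treated median lay near the untreated minimum, and the difference was -1.11 ± 0.17 (fold 0.462, edgeR adjusted p = 5.67e-07). In (CC012/GeniUncJ x CC002/UncJ)F1 the values were 27.1, 36.5 and 110.7 CPM in 24 untreated and 24.9, 29.7 and 51.8 CPM in 12 treated mice (-0.76 ± 0.17, edgeR adjusted p = 0.0127). In (CC051/TauUncJ x CC059/TauUncJ)F1 they were 21.6, 40.2 and 163 CPM in 24 untreated and 14.8, 31.1 and 37.4 CPM in 12 treated mice (-0.71 ± 0.17, edgeR adjusted p = 0.00753). In all 3 strains the groups overlapped at low levels, and the highest untreated mouse lay far above the highest treated one.

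In (CC011/UncJ x CC027/GeniUncJ)F1 the direction was the opposite, with 19.7, 26.1 and 69.7 CPM in 24 untreated and 25.7, 29.95 and 102.7 CPM in 11 treated mice (0.62 ± 0.17, edgeR adjusted p = 0.0224). There 2 of 11 treated mice and no untreated mouse exceeded 80 CPM, and the medians were close. The other 16 strains were not called, and their fitted differences ran from -0.32 in (CC009/UncJ x CC013/GeniUncJ)F1 to 0.44 in (CC002/UncJ x CC075/UncJ)F1, with 7 of 20 strains above 0 in all. Without (CC002/UncJ x CC043/GeniUncJ)F1 the pooled Ppargc1a difference was -0.09 in limma on log2 CPM and was no longer called (limma adjusted p = 0.107), and without (CC012/GeniUncJ x CC002/UncJ)F1 the same was true of Prkag2 (-0.06, limma adjusted p = 0.0777). Two-sided permutation tests on log2 CPM within each of the 20 strains, chosen after these values were seen and so no independent evidence, gave p adjusted over the 20 strains of 0.0012, 0.028, 0.05 and 0.15 for the 4 strains in the order given. The same tests gave 0.023 for (CC004/TauUncJ x CC019/TauUncJ)F1, where treated mice were higher by 0.411. With limma voom only the first of the 4 strains kept its call.

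**Figure D5:**
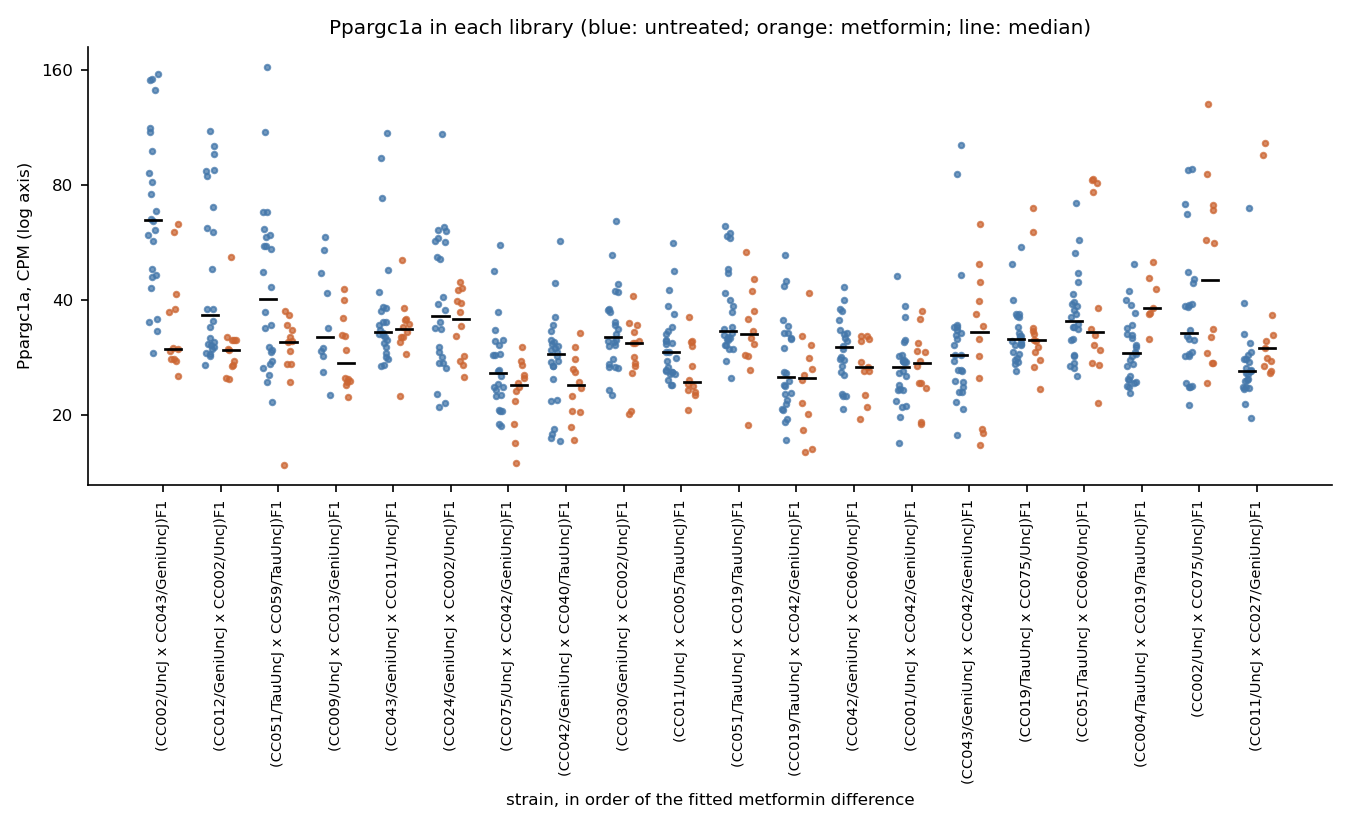
Each point is the Ppargc1a level of 1 library, in CPM on a log axis, by strain in order of the fitted metformin difference, with untreated mice in blue, metformin-treated mice in orange and the median as a line. The untreated points of (CC002/UncJ x CC043/GeniUncJ)F1 reach 156 CPM and its treated points 63.2 CPM, and most other strains center near 30 CPM in both groups.

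High Ppargc1a was concentrated in a few strains. In all, 31 libraries (4.41%) exceeded 80 CPM, a mark set after the values were seen, and they came from 9 strains. Of these, 9 were untreated mice of (CC002/UncJ x CC043/GeniUncJ)F1 and 6 untreated mice of (CC012/GeniUncJ x CC002/UncJ)F1, and neither strain had a treated mouse above it. The shares were 5.12% of untreated and 2.99% of treated libraries (24 and 7), 15 of 352 females (4.26%) and 16 of 351 males (4.56%), and 28 of 544 in the lower (5.15%) and 3 of 159 in the upper range (1.89%). The 7 treated libraries came from (CC051/TauUncJ x CC060/UncJ)F1 (3 mice), (CC002/UncJ x CC075/UncJ)F1 (2) and (CC011/UncJ x CC027/GeniUncJ)F1 (2).

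Diet differences of Ppargc1a varied between strains too, by a test that called 4.13% of genes and no other member (edgeR adjusted p = 0.0221 for Ppargc1a). In (CC002/UncJ x CC075/UncJ)F1 untreated mice measured 28.5, 44.8 and 88.1 CPM on 10% fat and 21.3, 28.9 and 38.8 CPM on 44% fat (n = 12 each). The difference there was -0.81 ± 0.19 (edgeR adjusted p = 0.00404), and 44% fat lay below the 10% fat median in all 12 mice. The direction was the other way, at 0.66 ± 0.19, for (CC043/GeniUncJ x CC042/GeniUncJ)F1, with medians of 26.2 CPM (n = 13) and 32.6 CPM (n = 12), and did not pass (edgeR adjusted p = 0.0608). Permutation tests within each of the 20 strains gave adjusted p of 0.012 for the first of these strains and 0.18 for the second, and 0.023 for (CC019/TauUncJ x CC075/UncJ)F1, where 44% fat was lower by 0.281. With limma voom, or in the lower range alone, the variation between strains was not called.

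With metformin, 18 of the 76 pathway genes (23.7%) were called, 6 higher and 12 lower, beside 19.4% of all genes. Here too the lists were chosen with earlier results of these data known. Of 16 AMPK targets, 2 were higher and none lower: Tbc1d4, a Rab GTPase-activating protein of insulin-stimulated glucose uptake, at 61.2 ± 17.3 CPM in treated and 55.5 ± 16.4 CPM in untreated mice (0.13 ± 0.02, edgeR adjusted p = 4.1e-06), and Hdac5, a class IIa histone deacetylase gene, by 0.04 ± 0.01. Of 15 PGC-1 coactivators and partners, 1 was higher and 3 were lower, among them Ppara, a nuclear receptor gene of fatty acid oxidation (7.97 ± 2.61 against 9.54 ± 3.4 CPM, -0.23 ± 0.04, edgeR adjusted p = 8.8e-08), and Esrra (33.5 ± 5.84 against 36 ± 6.93 CPM). The one higher was Pprc1, another PGC-1 family gene, by 0.06 ± 0.01. Sirtuin and NAD genes had 4 lower and none higher of 14, with Nmrk2 at 32.3 ± 24.9 against 41.4 ± 44.2 CPM. Adenylate and phosphocreatine genes had 2 higher and 3 lower of 12, the LKB1 group 1 higher (Strada) and 1 lower (Cab39) of 7, and the AMPK-related kinases 1 lower of 12 (Snrk). List medians lay between -0.0187 and 0.000646, beside -0.0022 for all genes.

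Members also covaried between mice once strain by range, sex, diet and treatment had been removed. Over all libraries and 45 pairs, Prkag1 and Stk11 rose together most closely (r = 0.510, rho = 0.440), at 0.491 in the lower and 0.559 in the upper range. The muscle isoform genes Prkab2 and Prkag3 had r = 0.416 (rho = 0.381), and Prkaa2 and Prkab2 r = 0.375 (rho = 0.318). Prkab2 and Stk11 had r = 0.357 (rho = 0.349), at 0.362 and 0.344 in the lower and upper range. Prkaa1 and Stk11 went in opposite directions (r = -0.431, rho = -0.395), as did Prkab1 and Ppargc1a (r = -0.378, rho = -0.358) and Stk11 and Sirt1 (r = -0.355, rho = -0.325). Each of these 7 had a permutation p of 1e-05, the smallest that 100000 permutations can give, and Benjamini-Hochberg values over the 45 pairs of 2.1e-05 for r and 2.5e-05 for rho. Leaving out the 2 libraries farthest from the median of the first gene left each r between -0.421 and 0.496. Within the ranges, Prkab2 with Prkag3 had r = 0.360 and 0.579, Prkaa2 with Prkab2 0.360 and 0.414, Prkaa1 with Stk11 -0.367 and -0.607, Prkab1 with Ppargc1a -0.411 and -0.225, and Stk11 with Sirt1 -0.346 and -0.384, in the lower and upper range. Ppargc1a was not clearly related to Stk11 (r = 0.0290) or Prkag1 (r = -0.000978). Weaker pairs, such as Prkab2 with Prkag1 (r = 0.184), had the same permutation p, so that p does not set the 7 pairs apart. Correlations of this kind were not computed for other genes, so whether the members covaried more than those is not known. All values are shares of a library's total and so depend on its composition.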

How the data were processed

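Gastrocnemius RNA was sequenced with a poly(A) library kit as paired reads. According to the study's methods, the authors aligned both mates as single-ended reads to a transcriptome of the 8 founder strains and estimated gene abundance with EMASE through GBRS, so each fragment can enter the total by either mate. The deposited values are estimated counts, given as whole numbers, on GRCm38 (per the labels), after removal of features with few reads across samples. A deposited table of log2-like values, made by the authors with the DESeq2 variance-stabilising transformation, served only as an alternative. The sources used here do not state whether it was batch-corrected.

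Groups came from the labels. Each library is 1 mouse, and no library pair of the same strain, sex, diet and treatment was identical (1404 pairs). Genes passing filterByExpr over the 8 groups were fitted with edgeR 4.0.16 in R 4.3.3 (TMM factors of 0.704 to 1.341, quasi-likelihood F test) with strain, sex, diet and identifier range as terms. P-values were adjusted by Benjamini-Hochberg over all genes tested, and called at 0.05. Errors after ± are SE for log2 differences and SD for levels. Positive differences are male over female, 44% over 10% fat and metformin over untreated. Alternatives used limma 3.58.1, DESeq2 1.42.0, other normalizations and filters, single identifier ranges, and fits without libraries that stood apart or without each strain. The code was tested on simulated data. The members and gene lists were chosen with earlier results of these data known. All 10 members are named in each comparison, and from each pathway list at most the 2 called genes of largest fold in each direction. With library totals of 27.4 M to 96.1 M, median counts ran from 270 (Prkag2) to 18890 (Prkaa2). Counting error thus weighed more for Prkag2, Prkab1 (346) and Sirt1 (434) than for the others, and its share of the spread was not computed.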

Additional observations from a re-analysis of the deposited data

Results flagged for a closer look

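In 2 groups of 10 libraries or fewer, each member was tested for a library standing apart from the rest. Of these 20 tests 4 found one, and all 4 were the same library, 1 of the 10 untreated mice of (CC009/UncJ x CC013/GeniUncJ)F1. Chance flags about 1 in 20 independent tests, and tests of 10 genes in the same libraries are not independent. The gap to the nearest library, as a share of the group's range, was 0.519 for the lowest Prkaa1 (10.9 CPM, group median 16.7 CPM), 0.608 for the lowest Prkaa2 (286 CPM, median 430 CPM), 0.532 for the highest Prkag1 (41.03 CPM, median 27.2 CPM) and 0.652 for the lowest Sirt1 (5.03 CPM, median 9.60 CPM). The metformin difference of Ppargc1a differed between strains (edgeR adjusted p = 1.27e-11), and so did its diet difference in untreated mice (edgeR adjusted p = 0.0221).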

How the results depend on the processing

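Each library is 1 mouse and every label carries replicate number 1. No comparison was therefore paired within mice, and strain entered the fits as a term. Counts of members called were compared by number and not by which members, and 0 beside 0 counted as the same. They stayed within 1.5 times the main count in 72 of 78 alternatives. The exceptions were the upper identifier range alone, with 4 members for strain, 0 for diet and 0 for metformin, the lower range alone, with 0 for diet in treated mice and 0 for diet by strain, and limma voom, with 0 for diet by strain. The ranges alone hold fewer libraries. Leaving out each strain in turn left these counts within 1.5 times for diet and metformin. Of the single-gene values, 544 kept direction and side of the threshold, 11 lost and 8 gained a call, and 32 changed sign. For sex, the sign changes were Prkaa2 (-0.043 without normalization factors, -0.0055 among genes at 5 CPM or more) and Prkag2 (-0.0028 without factors, -0.171 in the upper range). For diet in untreated mice they were Prkag1 (0.0014), Ppargc1a (0.094) and Sirt1 (-0.068) in the upper range and Stk11 (-0.0024) without factors, and in treated mice Sirt1 (-0.0052) in the lower range. For metformin, Prkaa1 had -0.022 without factors, -0.0009 without a filter, -0.0094 in the lower range, -0.0065 with a strain-by-range term, and -0.0035, -0.00034 and -0.0022 without the libraries with an Xist mismatch, those nearer another strain and those high in hepatocyte markers, Prkaa2 had -0.0015 without factors, Stk11 had 0.0042 in the lower range, and Sirt1 had 0.0015 with voom and 0.0012 on variance-stabilised values. In the upper range Prkag2 had 0.048, Ppargc1a 0.014 and Sirt1 0.012. For metformin by diet, Prkaa2 had 0.00042 with voom and Sirt1 -0.038 in the lower range. For metformin by sex, the lower range gave Prkab2 -0.049, Prkag3 -0.04 and Sirt1 0.014, voom gave Ppargc1a 0.01 and Sirt1 0.0043, DESeq2 size factors gave Sirt1 0.0026, and leaving out libraries high in hepatocyte markers gave Prkab1 0.0012. Without single strains, the metformin difference ran from -0.0051 to 0.01 for Prkaa1, from -0.0075 to 0.008 for Sirt1 and from -0.011 to 0.0017 for Stk11, and the diet difference of Prkag1 from -0.0097 to 0.0019. The cause of these changes was not tested.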
